A study of Mus musculus with 77 samples.

Results

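Potassium channel genes were followed in the mRNA that co-precipitated with Argonaute 2 (AGO2) from the BNST (bed nucleus of the stria terminalis), a region of the basal forebrain tied to anxiety. The genes were all protein-coding rows of the deposited table whose mouse symbol starts with Kcn, leaving out the Kcnip genes and Kcnj13. This rule uses names and no measured value, and it gave 74 of the 16587 genes in the table, in 19 subfamilies. Of 89 annotated Kcn genes that the rule allows, the other 15, such as Kcnq1, Kcnn4 and Kcne1, had no row and were not analysed here.

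AGO2 is the protein that carries a microRNA (miRNA) to its target, so the values describe mRNA recovered with AGO2 and not total mRNA. They are shares of each library. The samples hold no control precipitation, so mRNA carried along without binding AGO2 cannot be told apart. All mice were B6 males 8 weeks old, a strain written C57BL/6Crl in the sample labels and C57BL/6NCrl in the study's paper. Each library was a pool of BNST from 3 mice, taken 6 to 8 days after chronic social defeat stress (CSDS), in which a mouse meets a new aggressor every day. The 3 groups were 5 pools of control mice, which had no defeat, 5 pools of mice called resilient and 4 pools of mice called susceptible by their social avoidance of an aggressor strain. The groups therefore share strain, sex, age and region, resilience and susceptibility were assigned after the stress by behaviour, and each pool averages 3 animals.

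Reads on genes ranged from 4496314 to 6162932 in control pools, from 3701281 to 10659882 in resilient pools and from 5146998 to 7604641 in susceptible pools. The channel genes took between 0.512% and 0.642% of them. Of the 74 genes, 62 had at least 10 reads in every pool, and 2 genes (Kcne2 and Kcng2) had a pool with 0 reads. All 7 markers of neurons and all 3 of GABA neurons, the main neurons of the BNST, were read in every pool. One library stood apart from its label. On the first principal component of all genes, which held 20.7% of the variance, resilient pool 3 lay at -34.7, within the range of the control pools (-34.9 to -15.6), while the other 4 resilient pools lay between 7.75 and 52.3. It was also the deepest library. Results that rest on this pool are given with and without it. The pool was singled out on these same data for lying with the controls, so leaving it out favours calls against controls. Values without it, p-values included, are therefore a description.

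Potassium channels let potassium leave the cell and so pull the membrane towards rest. The pore of voltage-gated (Kv) channels is built by the Kcna, Kcnb, Kcnc and Kcnd genes, whose products set spike threshold, spike width and repetitive firing. Silent Kv subunits (Kcnf, Kcng, Kcns, Kcnv) form no channel alone and change the properties of Kcnb channels. Other families are the Kcnh and Kcnq channels, the inward rectifiers (Kcnj), the tandem-pore leak channels (Kcnk), the channels opened by calcium, sodium or alkaline pH (Kcnm, Kcnn, Kcnt, Kcnu) and the auxiliary subunits (Kcnab, Kcne, Kcnmb). In BNST neurons, as in others, the mix of these genes shapes excitability.

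Levels spanned a wide range. Per kilobase of exon, the mean level over 14 pools ran from -2.02 log2 CPM (reads of a gene scaled to a common library size) for Kcnk5 to 5.85 for Kcnj2, an inward rectifier that holds the resting potential. The next were Kcna1 (5.80 log2 CPM per kb) and Kcna2 (5.52), which together form low-threshold channels of axons, and Kcnj10 (5.49), the main inward rectifier of astrocytes. In the same scale, the Kcnc genes, typical of fast-spiking neurons, had a median of 4.82, and the tandem-pore genes had a median of 0.92 with Kcnk3, an acid-sensitive leak channel, at 4.86. The lowest families were the Kcne subunits, with a median of -0.29, and Kcnu1, a channel of sperm, at -0.95.

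**Figure D1:**
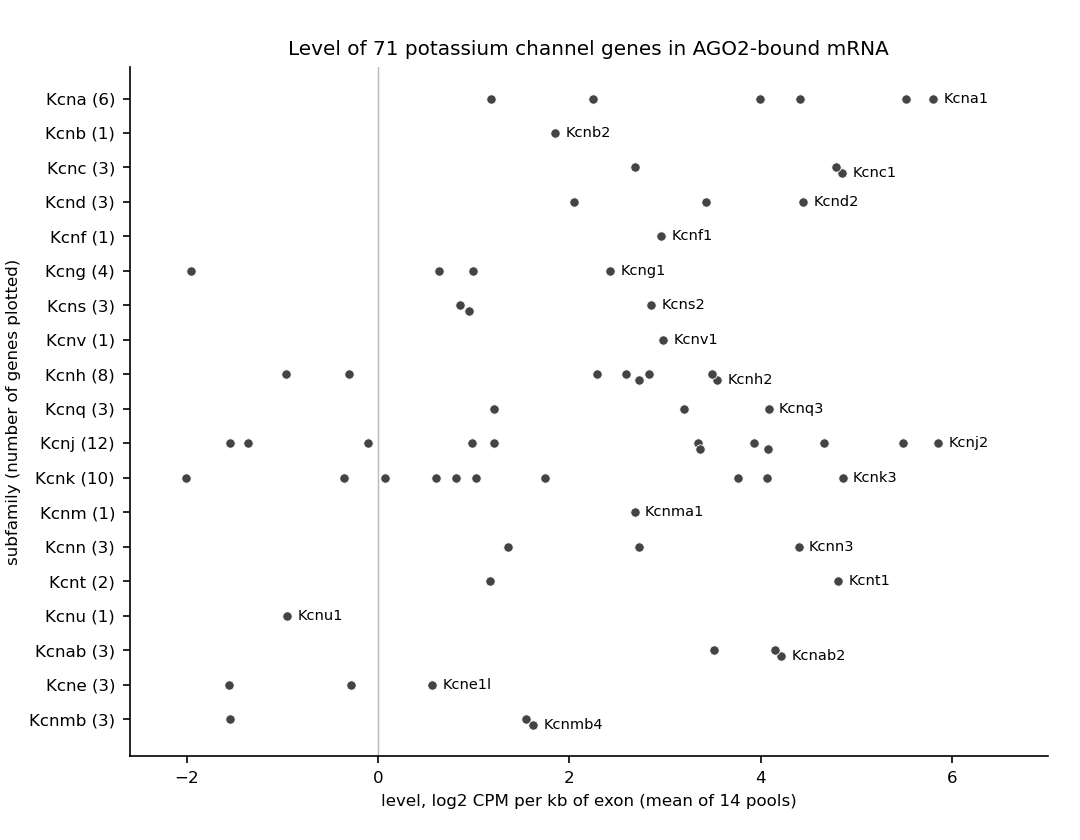
Level of 71 of the 74 genes, as the mean log2 CPM per kilobase of exon over 14 pools (x axis), by subfamily (y axis, number of genes plotted in brackets). Each point is a gene, and the highest one plotted in a subfamily is named. Kcnj2 (5.85) and Kcna1 (5.80) stand highest, and the Kcne subunits and Kcnu1 lie at or below 0.56 on this scale.

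For most genes, pools of a group differed by about as much as many of the differences between groups given below. Over the 62 genes with at least 10 reads in every pool, the median SD between pools was 0.28 log2 CPM in controls, 0.35 in resilient pools and 0.27 in susceptible pools. Without resilient pool 3 the resilient median was 0.25. The smallest SD among controls belonged to Kcnn3, a calcium-activated channel (0.076), and the largest among resilient pools to Kcnv1, a silent Kv subunit (0.94, and 0.79 without pool 3).

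After CSDS more channel genes were lower than higher, in both defeated groups. A gene was called when its limma p was under 0.05 and its fold change at least 1.2. In resilient pools against controls 11 of 74 genes were called, 2 higher and 9 lower, a share of 14.9% against 17.7% of all 16587 genes (8.65% called higher and 9.04% called lower). In susceptible pools against controls 16 were called, 2 higher and 14 lower, or 21.6% against 18.9% of all genes (9.65% higher and 9.28% lower). The share of calls was therefore near that of all genes, and the split by direction was not. The median difference was -0.18 log2 in both comparisons, against -0.02 and -0.01 over all genes, and 56 and 54 of the 74 differences were below 0, where all genes gave 52.8% and 51.2%. These counts describe the list and carry no test, and both comparisons use the same control pools. The sum of the 7 neuron markers (Snap25, Syt1, Rbfox3 and others) was 10.9 to 11.2 log2 CPM in controls, 10.7 to 11.0 in resilient and 10.4 to 10.9 in susceptible pools, and 5 of the 7 were called lower in susceptible pools. Its part in the lower channel values was not tested. Fewer cells of a type, less RNA per cell and less of that RNA bound to AGO2 cannot be told apart here. The tissue was pooled, and the samples hold no total RNA of these pools.

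After adjustment over all genes by the Benjamini-Hochberg method, 3 genes passed 0.05 in resilient pools (Kcnt1 higher, Kcnk2 and Kcns2 lower, against 1.95% of all genes, or 1.32% higher and 0.633% lower). In susceptible pools 2 passed (Kcnt1 higher and Kcnk2 lower, against 4.02% of all genes, or 2.31% higher and 1.71% lower). No overlap with the controls was seen for 1 gene that was higher in each comparison (Kcnt1, against 3.0% and 5.9% of all genes). Among lower genes it was seen for 0 of 74 in resilient pools (2.18% of all genes) and for 4 in susceptible pools (Kcna4, Kcnk1, Kcnk2 and Kcns2, against 5.05%). In all, 21 genes were called in either comparison and 6 in both, namely Kcnk2, Kcnk1, Kcns2, Kcnf1 and Kcnd2 lower and Kcnt1 higher. With total reads in place of the TMM-scaled library size, the susceptible comparison called 3 genes higher and 8 lower. Near the limits of a call, the unadjusted limma value in resilient pools was 0.0467 for Kcna3, which was inside, and 0.0534 for Kcna4, which was outside. In susceptible pools it was 0.0499 for Kcna2, inside, and 0.0533 for Kcng3, outside, and Kcnma1 missed by its fold change of 1.197.

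**Figure D2:**
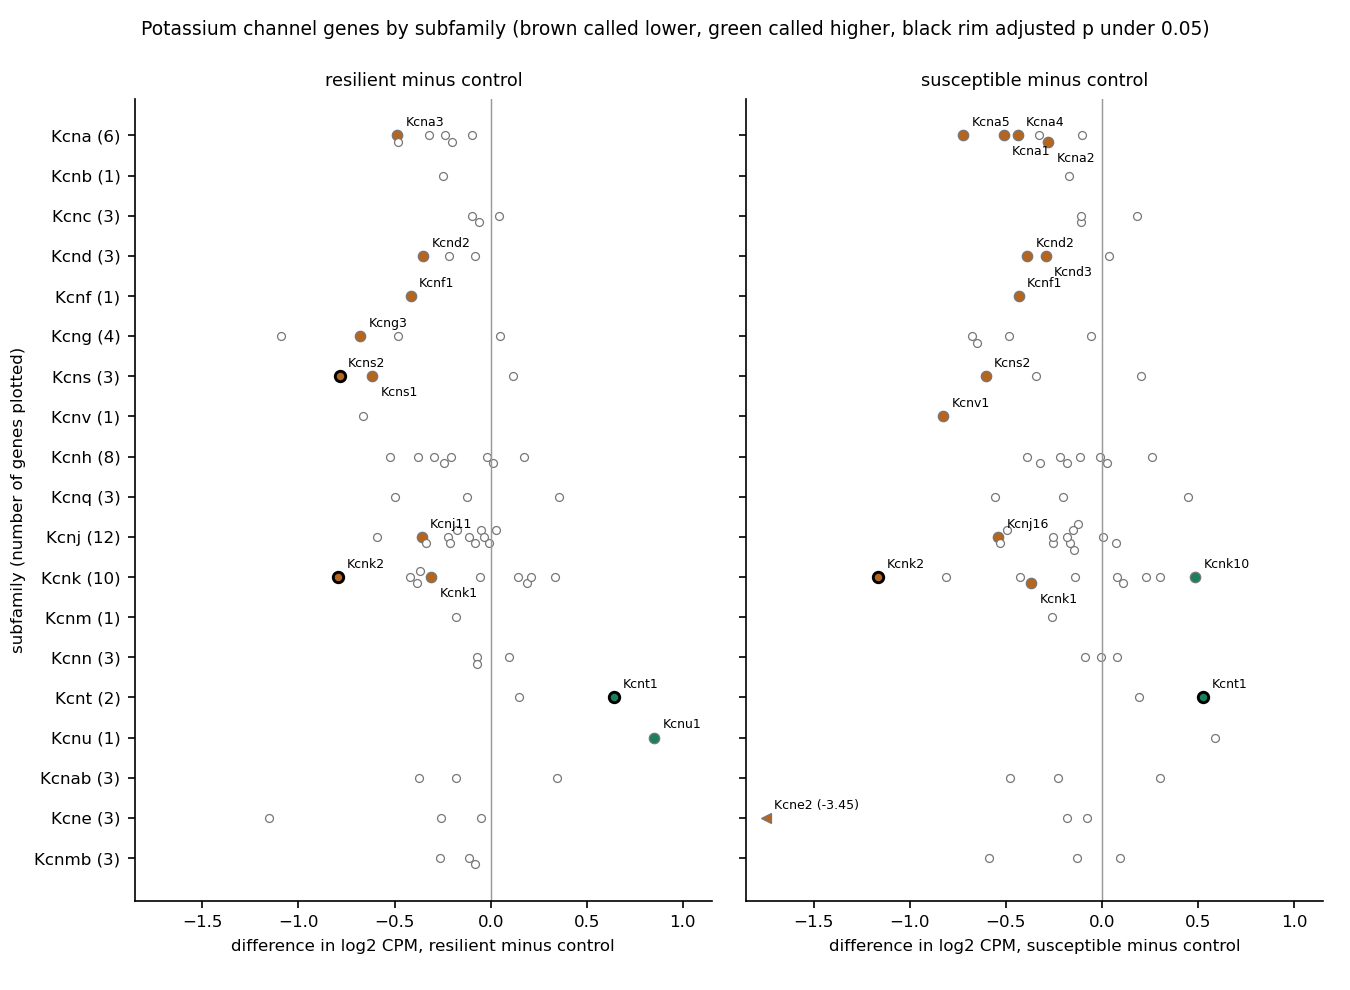
Difference in log2 CPM of 71 of the 74 genes from the control pools (x axis) for resilient (left) and susceptible pools (right), by subfamily (y axis). Filled points were called lower (brown) or higher (green), open points were not called, a black rim marks an adjusted p under 0.05, and the arrowhead is Kcne2, off the axis at -3.45. Called genes lie mostly left of 0 among Kcna, Kcnd, Kcnf, Kcng, Kcns and Kcnk, and Kcnt1 lies right of 0 in both panels.

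The largest adjusted change was in Kcnk2, a tandem-pore channel opened by stretch, lipids and heat and closed by several neurotransmitters (chr1:189207930-189402273, GRCm38). It measured 6.64, 6.17, 6.72, 6.86 and 7.00 log2 CPM in the 5 control pools. Resilient pools gave 5.77, 5.41, 6.37, 5.79 and 6.09, and susceptible pools 6.01, 5.52, 5.28 and 5.25. Every susceptible pool was below every control pool, and among resilient pools only pool 3 reached the control range. The decrease was -0.79 ± 0.19 (log2, SE) in resilient pools (limma, adjusted p = 0.0383) and -1.16 ± 0.20 in susceptible pools (adjusted p = 0.00911), a fold change of 1.73 and 2.24. The exact two-sided permutation p was 0.0159 and 0.00794, the last being the smallest that this design can give. Kcnk2 was called under all 23 alternatives in both comparisons. Its limma adjusted p rose to as much as 0.0935 in resilient and 0.0475 in susceptible pools.

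Of the other tandem-pore genes, Kcnk1, a weakly conducting leak channel, was called lower in both groups. Control pools had 5.25, 5.33, 5.65, 5.49 and 5.49 log2 CPM and resilient pools 5.12, 4.93, 5.52, 5.13 and 4.98. Susceptible pools were at 5.16, 5.06, 5.09 and 4.99. All susceptible pools fell below all controls, and so did every resilient pool except pool 3. The differences were -0.31 ± 0.12 (adjusted p = 0.148) and -0.37 ± 0.12 (adjusted p = 0.0952), so neither passed the adjustment.

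Kcnk10, the closest relative of Kcnk2 and also opened by stretch and lipids, was called higher in susceptible pools. It lay at 4.86, 4.54, 4.91, 4.60 and 4.20 log2 CPM in controls, at 5.17, 4.94, 4.79, 5.03 and 4.84 in resilient pools and at 4.68, 4.88, 5.40 and 5.48 in susceptible pools. Those 2 highest susceptible pools carried the difference of 0.48 ± 0.17 (adjusted p = 0.118), and the call was lost when either was left out. In resilient pools the difference was 0.33 ± 0.16, not called. Kcnk3 did not pass in either group (-0.05 ± 0.26 and -0.43 ± 0.28). In all, 2 of 10 tandem-pore genes were called lower in resilient pools, and 2 lower and 1 higher in susceptible pools. Over all genes 17.7% and 18.9% were called. The median differences of the tandem-pore genes were -0.18 and -0.03.

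Silent Kv subunits had the lowest median of the families, -0.62 in resilient and -0.48 in susceptible pools over 9 genes. Of these, 4 and 3 were called, all lower, where 9.04% and 9.28% of all genes were called lower. Kcns2 (chr15:34837355-34843407) led them. It had 5.90, 5.93, 5.80, 5.58 and 5.74 log2 CPM in controls and 4.86, 4.51, 5.75, 5.06 and 4.85 in resilient pools. Susceptible pools had 5.13, 5.13, 5.39 and 5.10. No susceptible pool overlapped the controls, while resilient pool 3 lay among them. Kcns2 fell by 0.78 ± 0.17 in resilient pools (adjusted p = 0.0292, exact permutation p = 0.0238). In susceptible pools the difference was -0.60 ± 0.18 (adjusted p = 0.0643, exact permutation p = 0.00794). Without resilient pool 3, Kcns2 was lower by -0.97 ± 0.12 in resilient pools (adjusted p = 0.00141).

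Kcnf1, which like Kcns2 alters Kcnb channels, was called lower in both groups. Its values were 5.61, 5.22, 5.66, 5.49 and 5.48 log2 CPM in controls, 4.71, 5.06, 5.70, 5.08 and 4.81 in resilient pools and 5.10, 4.93, 5.33 and 4.86 in susceptible pools. Control pool 2 was the only control below a susceptible pool, and resilient pool 3 was the highest pool of all. The differences were -0.42 ± 0.16 (adjusted p = 0.154) and -0.43 ± 0.17 (adjusted p = 0.149).

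Kcns1 and Kcng3 were called lower in resilient pools only at the unadjusted threshold, by -0.62 ± 0.26 (adjusted p = 0.189) and -0.68 ± 0.31 (adjusted p = 0.221). Of 23 alternatives, Kcns1 lost the call in 2 and Kcng3 in 11. Both were scarce, with 13 to 55 and 11 to 93 reads per resilient pool. In susceptible pools their differences were -0.34 ± 0.27 and -0.68 ± 0.33, neither called. That they differ between the defeated groups is not shown, since the direct difference was 0.27 ± 0.27 for Kcns1 and 0.00 ± 0.33 for Kcng3.

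Kcnv1 was called lower in susceptible pools, and its pools were far apart. Controls had 5.58, 5.49, 5.30, 6.03 and 5.86 log2 CPM, resilient pools 4.36, 3.75, 6.13, 5.51 and 5.18 and susceptible pools 5.52, 4.96, 4.26 and 4.57. The difference was -0.83 ± 0.36 in susceptible pools (adjusted p = 0.197) and -0.67 ± 0.34 in resilient pools, where Kcnv1 was not called. It was called there without pool 3 (-0.95 ± 0.30, adjusted p = 0.0475), without pool 4 (-0.80) and with sample quality weights (-0.72). The 7 markers of striatal projection neurons (Drd1, Drd2, Adora2a and others), a cell type of the neighbouring striatum, had the same order in the pools at the ends. Their sum was lowest in resilient pool 2 (9.65 log2 CPM) and susceptible pool 3 (9.75) and highest in resilient pool 3 (11.7). All 7 had differences below 0 in both comparisons, and no pool had 0 reads of any. In each comparison 2 of the 7 were called lower (against 9.04% of all genes in resilient and 9.28% in susceptible pools). Kcnv1 was not alone in this order. Kcng1, Kcnh4, Kcnq5 and Kcnab1, picked here after their values were seen, were also lowest in resilient pool 2. Next came susceptible pool 3, and resilient pool 3 was highest. The part of the striatal markers in the values of Kcnv1 and of these genes was not tested.

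**Figure D3:**
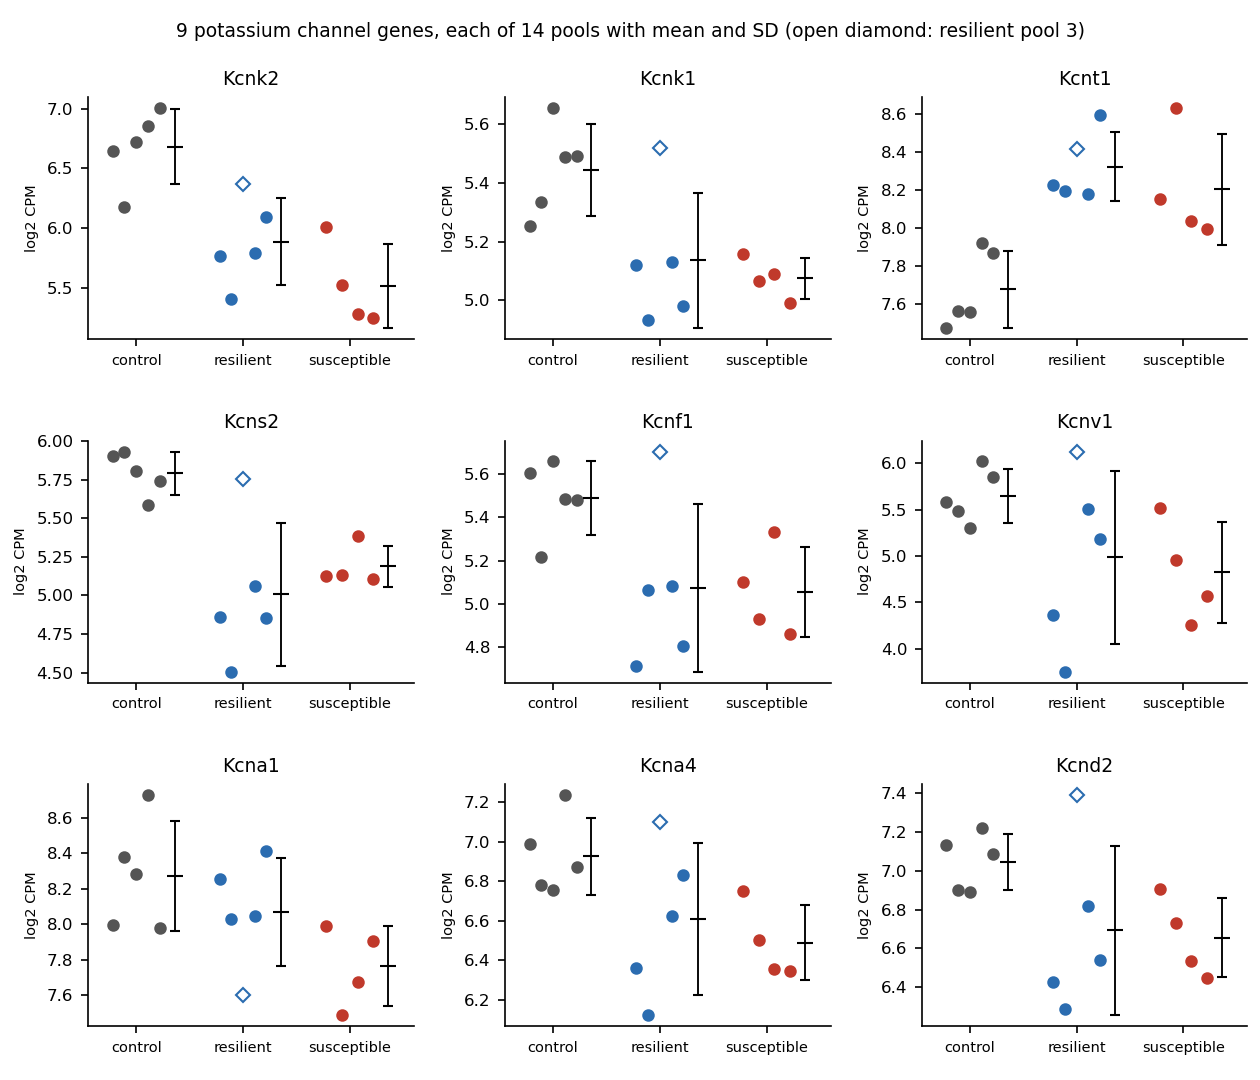
Values of 9 channel genes in each of 14 pools (y axis, log2 CPM, scales differ between panels), by group (x axis), with the mean and SD of the group as a bar. Resilient pool 3 is the open diamond. For Kcnk2, Kcnk1, Kcns2 and Kcna4 every susceptible point lies below every control point, for Kcnt1 every defeated point lies above every control point, and the open diamond lies with the controls for most genes other than Kcnt1 and Kcna1.

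Most genes of the Kv pore had differences below 0, 13 of 15 in each comparison, with medians of -0.21 in resilient and -0.28 in susceptible pools. In susceptible pools 7 of 15 were called, all lower and among them Kcna1, Kcna2, Kcna4, Kcnd2 and Kcnd3, against 2 of 15 in resilient pools (Kcna3 and Kcnd2, both lower). Over all genes 9.28% were called lower in susceptible and 9.04% in resilient pools. Kcna3 lost its call in 13 of 23 alternatives. None of these 15 genes passed the adjustment over all genes. The count in susceptible pools depended on scaling, with 4 called after quantile normalization and 2 with total reads as library size, while 13 of 15 differences were below 0 under each of these. In resilient pools 5 were called without pool 3, and the gap between the counts of the defeated groups was not tested. No Kv pore gene was called between susceptible and resilient pools.

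Kcna1, a low-threshold channel of axons, had 8.00, 8.38, 8.29, 8.73 and 7.98 log2 CPM in controls, 8.26, 8.03, 7.60, 8.05 and 8.42 in resilient pools and 7.99, 7.49, 7.67 and 7.90 in susceptible pools. Of 4 susceptible pools, 3 lay below every control and the fourth just above the lowest, while resilient pools overlapped the controls. The differences were -0.20 ± 0.16 (not called) in resilient and -0.51 ± 0.17 in susceptible pools (adjusted p = 0.0902, exact permutation p = 0.0397). Its partner Kcna2 was just inside the limit in susceptible pools, at -0.28 ± 0.13 (adjusted p = 0.236), and lost the call in 16 of 23 alternatives. Kcna1 lies between Kcna5 and Kcna6 on chromosome 6, with gaps of 104985 and 61945 bases. Of these neighbours Kcna5 was called lower in susceptible pools (-0.72 ± 0.33) and Kcna6 was not (-0.11). Both were chosen after their values were seen.

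Kcna4 and the Kcnd genes make A-type channels, which inactivate quickly and delay the first spike. Kcna4 had 6.99, 6.78, 6.76, 7.24 and 6.87 log2 CPM in controls, 6.36, 6.12, 7.10, 6.63 and 6.83 in resilient pools and 6.75, 6.50, 6.35 and 6.35 in susceptible pools. All susceptible pools were below all controls, the nearest pair at 6.75 and 6.76. The difference was -0.44 ± 0.16 (adjusted p = 0.131, exact permutation p = 0.00794) in susceptible pools and -0.32 ± 0.15, not called, in resilient pools. Kcnd2 was called lower in both groups, by -0.35 ± 0.16 (adjusted p = 0.228) and -0.39 ± 0.17 (adjusted p = 0.205). Kcnd2 lost the call in 11 of 23 alternatives in resilient and in 8 of 23 in susceptible pools. Its control pools held 7.13, 6.90, 6.89, 7.22 and 7.09 log2 CPM, its resilient pools 6.43, 6.29, 7.39, 6.82 and 6.54 and its susceptible pools 6.91, 6.73, 6.54 and 6.45. Resilient pool 3 was the highest of all 14 pools, and without it the resilient difference was -0.53 ± 0.12 (adjusted p = 0.0129). Kcnd3 was called lower in susceptible pools (-0.29 ± 0.12, adjusted p = 0.178), and the direct difference between the defeated groups was -0.08 ± 0.12.

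Kcnb2, a delayed rectifier that silent subunits join, did not pass (-0.25 ± 0.15 and -0.17 ± 0.16). None of the 4 Kcnc genes was called in either comparison. For Kcnc1 the 95% intervals were -0.31 to 0.19 in resilient and -0.37 to 0.15 in susceptible pools, and for Kcnc2 they were -0.48 to 0.29 and -0.52 to 0.30.

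Kcnt1 was the clearest increase. It encodes a channel opened by intracellular sodium that acts after bursts of firing (chr2:25863734-25918273). Control pools measured 7.48, 7.56, 7.56, 7.92 and 7.87 log2 CPM. Resilient pools measured 8.22, 8.20, 8.42, 8.18 and 8.60, and susceptible pools 8.15, 8.63, 8.04 and 8.00. Every defeated pool, resilient pool 3 included, was above every control pool. In resilient pools Kcnt1 rose by 0.64 ± 0.13 (adjusted p = 0.0233) and in susceptible pools by 0.53 ± 0.14 (adjusted p = 0.0393), a fold change of 1.56 and 1.44, with exact permutation values of 0.00794 and 0.0159. It was called under all 23 alternatives in both comparisons. Its limma adjusted p rose to as much as 0.0790 in resilient and 0.163 in susceptible pools, so it did not pass the adjustment under each of them.

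Among the other genes of this group, Kcnu1 was called higher in resilient pools (0.85 ± 0.32, adjusted p = 0.151) at 8 to 25 reads per pool. Its controls had 5 to 11 reads, so the depth allows little more than the direction. Its value in susceptible pools was 0.59 ± 0.34, not called. Kcnma1, the large-conductance calcium-activated channel that ends spikes, was just outside the fold limit at -0.26 ± 0.09 in susceptible pools and -0.18 ± 0.09 in resilient pools. The small-conductance genes Kcnn1, Kcnn2 and Kcnn3 were not called, with differences between -0.09 and 0.10. The 95% interval for Kcnn2 was -0.31 to 0.17 in resilient and -0.34 to 0.16 in susceptible pools.

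With all pools, only 1 of 12 inward rectifiers was called in each comparison, although 11 and 10 had differences below 0. Kcnj11, the pore of the ATP-sensitive channel, was lower in resilient pools, at 5.28, 5.06, 5.35, 4.49 and 5.12 log2 CPM against 5.33, 5.12, 5.77, 5.47 and 5.41 in controls. Pool 4 was the lowest of these, and the call (-0.36 ± 0.16, adjusted p = 0.203) was lost without it. Kcnj16, which joins Kcnj10 in glia, was lower in susceptible pools, at 3.11, 2.82, 3.00 and 2.57 against 3.73, 3.78, 3.20, 2.78 and 3.58 in controls (-0.54 ± 0.22, adjusted p = 0.169). Kcnj10 itself was not called, with intervals of -0.31 to 0.20 and -0.39 to 0.14. The genes of channels opened by G proteins, Kcnj3, Kcnj6 and Kcnj9, were not called, with differences between -0.18 and 0.03. Kcnj2 was widely spread in susceptible pools (8.80, 7.75, 7.04 and 8.35 log2 CPM), and its difference of -0.50 ± 0.30 was not called. Without resilient pool 3, Kcnj4, a related inward rectifier, was called lower in resilient pools (-0.85 ± 0.26, adjusted p = 0.0445).

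None of the 8 Kcnh genes and none of the 4 Kcnq genes was called against controls with all pools. Kcnh2, the highest Kcnh gene per kb, which shapes recovery after spikes, was at 0.17 ± 0.14 in resilient and 0.26 ± 0.14 in susceptible pools. Kcnq3, a subunit of the channel that muscarinic receptors close, was at -0.20 ± 0.09 in susceptible pools, with an unadjusted p of 0.0349 and a fold change under the minimum. Kcnq5 had larger values with more spread (-0.50 ± 0.28 and -0.56 ± 0.30), was not called, and was called lower in resilient pools when pool 3 was left out (-0.77 ± 0.23, adjusted p = 0.0401). So was Kcnh1, a slowly gated voltage-dependent channel (-0.56 ± 0.19, adjusted p = 0.0662).

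Of 9 auxiliary genes, Kcne2 was the only one called with all pools, lower in susceptible pools. It encodes a subunit found in the epithelium of the choroid plexus, among other places (chr16:92292389-92298129). Its reads were 31, 5, 10, 14 and 1 in control pools, 7, 1, 45, 2 and 0 in resilient pools and 0, 0, 0 and 6 in susceptible pools. The fitted difference of -3.45 ± 1.09 (adjusted p = 0.0822, exact permutation p = 0.0476) depends on the offset given to pools at 0 reads, and it was -2.22 to -4.45 over the alternatives. Most choroid plexus markers were lower in susceptible pools too. Of 7, 5 were called lower in susceptible pools (against 9.28% of all genes) and 1 in resilient pools (against 9.04%). In each comparison 6 of the marker differences were below 0. Their summed level was 6.35 to 8.08 log2 CPM in control, 6.12 to 7.63 in resilient and 6.25 to 7.01 in susceptible pools. Ttr and Kl, the defining markers, had 4 to 889 and 16 to 172 reads over the pools, and Folr1 and Slc4a5 had pools at 0. The 4 ependymal markers also had 3 called lower in each comparison (against 9.04% of all genes in resilient and 9.28% in susceptible pools). Their part in the value of Kcne2 was not tested. Kcnab2, the most abundant auxiliary gene per kb, was not called (-0.18 ± 0.13 and -0.23 ± 0.13), nor was Kcnmb4, a subunit of the Kcnma1 channel (-0.11 ± 0.19 and -0.13 ± 0.20). Without resilient pool 3, the related subunits Kcnab3 and Kcnab1 were called in resilient pools, Kcnab3 higher (0.61 ± 0.14, adjusted p = 0.0151) and Kcnab1 lower (-0.60 ± 0.19, adjusted p = 0.0488).

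**Figure D4:**
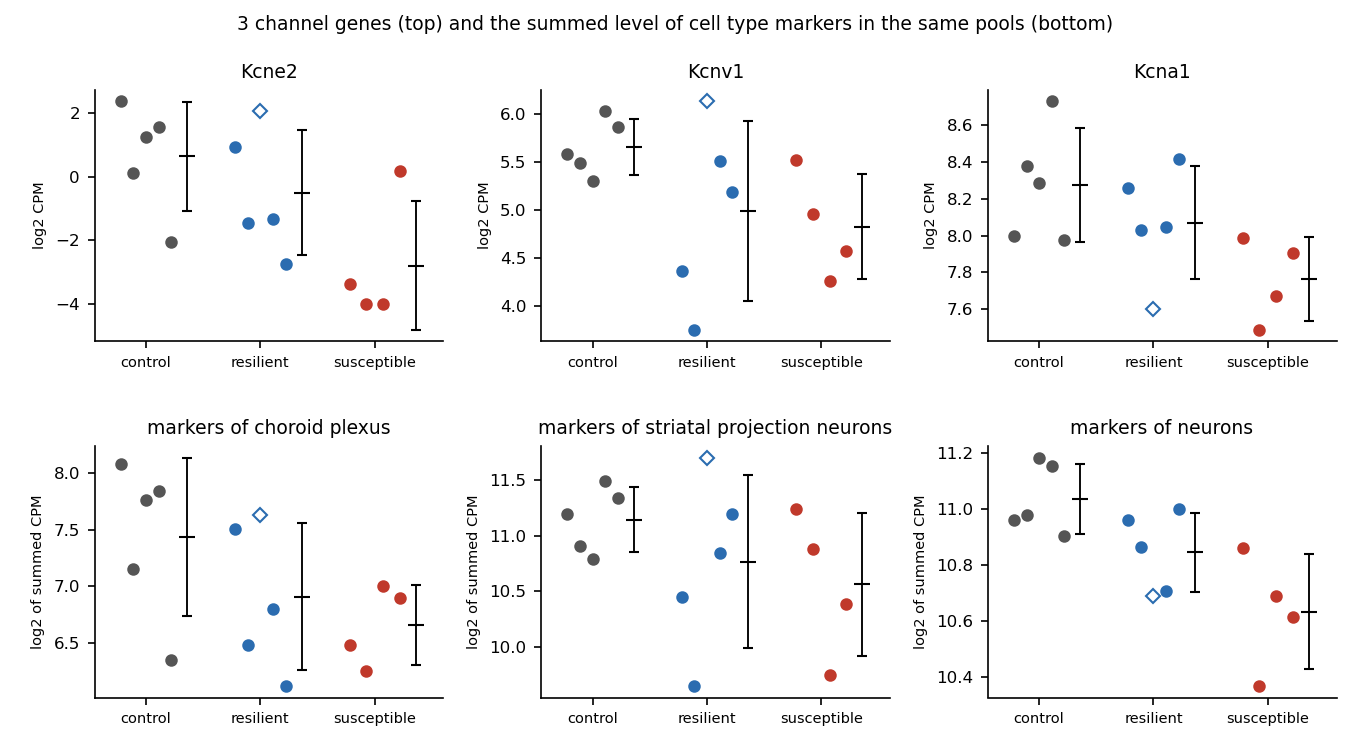
Top row, values of Kcne2, Kcnv1 and Kcna1 in each of 14 pools (log2 CPM), and bottom row, log2 of the summed CPM of the markers of choroid plexus, striatal projection neurons and neurons in the same pools, with group means and SD and resilient pool 3 as the open diamond. Kcne2 and the choroid plexus sum are both high in control pools 1, 3 and 4 and in resilient pools 1 and 3. In susceptible pool 3 they part, with 0 reads of Kcne2 at a sum of 7.01. Kcnv1 and the striatal sum are both lowest in resilient pool 2 and susceptible pool 3, and neuron markers are lowest in susceptible pools (10.4 to 10.9).

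Resilient pool 3 changed the resilient comparison most. In 8 of the 9 genes called lower there, it was the highest resilient pool. Without it, 23 genes were called in resilient pools, 4 higher and 19 lower (against 26% of all genes), and 14 passed the adjustment, among them Kcna4, Kcnd2, Kcnf1, Kcnk1, Kcnq5 and Kcnv1 besides Kcnk2, Kcns2 and Kcnt1. The calls gained by leaving it out also took in Kcna5 (-0.76 ± 0.27), Kcng1 (-0.79 ± 0.28) and Kcnk13 (-0.54 ± 0.26), all lower, and Kcnk10 (0.37 ± 0.17), higher, none of which passed the adjustment. Kcnab1, Kcnab3, Kcnj4, Kcnh1 and Kcnk13 were named after their values were seen. The median difference was then -0.17, close to -0.18 with all pools. Because the pool was chosen for lying with the controls, a rise in calls was favoured by that choice. Over all genes the share called rose from 17.7% to 26%. The p-values without resilient pool 3 are thus descriptive. In susceptible pools, which share the estimate of the spread, 19 genes were then called, 2 higher and 17 lower (against 20.9% of all genes). Leaving out resilient pool 1 or 2 lowered the resilient count to 7 in either case.

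Between susceptible and resilient pools hardly any channel gene differed. Only Kcnk6, a leak channel, was called (1 of 74 against 2.14% of all genes, of which 0.953% were higher), higher in susceptible pools at 3.43, 3.18, 3.41 and 3.22 log2 CPM against 3.03, 2.00, 3.03, 3.11 and 2.74. No pools overlapped (1 of 74 genes in this direction, against 0.368% of all genes), but the controls (2.81, 2.81, 3.46, 3.40 and 3.50) overlapped both groups, and the difference of 0.53 ± 0.23 did not pass the adjustment. No gene did (limma, 0 of 74 at an adjusted p under 0.05 and 1 at an unadjusted p under 0.05, and 0.0% of all genes). Of the 74 differences 43 were below 0, where all genes gave 47.4%. For the genes changed after defeat the intervals remained wide. The difference between susceptible and resilient pools was -0.37 for Kcnk2 (95% interval -0.79 to 0.04), 0.18 for Kcns2 (-0.19 to 0.56), -0.12 for Kcnt1 (-0.40 to 0.17) and -0.31 for Kcna1 (-0.66 to 0.04). Without resilient pool 3, 5 genes were called (Kcna1, Kcna2 and Kcnk3 lower, Kcnk6 and Kcns2 higher), against 5.71% of all genes.

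Genes that work with these channels gave calls in both directions. Of 28 listed partners 25 were in the table, and 6 were called in resilient pools (3 higher and 3 lower) and 6 in susceptible pools (2 higher and 4 lower). That is 24% in each, against 17.7% and 18.9% of all genes. Most partner differences were below 0, 19 and 20 of 25, with medians of -0.19 and -0.22. A lean below 0 was thus not particular to the channel genes. Cntnap2, which holds Kcna channels beside the node of Ranvier, was at -0.42 ± 0.13 and -0.53 ± 0.14 (adjusted p = 0.0871 and 0.0380). Cntn2, its binding partner at that site, went the other way, at 0.45 ± 0.12 and 0.49 ± 0.12 (adjusted p = 0.0512 and 0.0339). Vapa, an endoplasmic reticulum protein that binds Kcnb channels at membrane contacts, fell in both groups (-0.67 ± 0.17 and -0.71 ± 0.18, adjusted p = 0.0483 and 0.0360). Abcc8, the sulfonylurea receptor around the Kcnj11 pore, was called higher (0.60 ± 0.17 and 0.54 ± 0.18, adjusted p = 0.0640 and 0.0910), opposite in sign to Kcnj11 (-0.36 and -0.25). Dlg4, a scaffold that clusters Kcna channels, was called lower in susceptible pools (-0.45 ± 0.12, adjusted p = 0.0523).

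Of 4 Hcn genes, related cation channels that open on hyperpolarization, only Hcn3 was called, higher in susceptible pools (0.40 ± 0.14, adjusted p = 0.122). Among 11 genes of potassium transport, Atp1b1, a subunit of the sodium-potassium pump, was lower in both groups (-0.37 ± 0.10 and -0.55 ± 0.11, adjusted p = 0.0695 and 0.0143), while the other pump genes were not called. Slc12a4, a cotransporter of potassium and chloride, was called higher in resilient pools (0.50 ± 0.18, adjusted p = 0.128). For comparison with other ion channels, 2 of 11 sodium channel genes were called in resilient pools and 3 in susceptible pools. Of 22 voltage-gated calcium channel genes, 4 and 3 were called. Over all genes 17.7% and 18.9% were called. The median differences were -0.16 and -0.20 for sodium channels and -0.04 and -0.06 for calcium channels, beside -0.18 and -0.18 for the potassium channel genes.

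The study paired some of these genes with an AGO2-bound miRNA, among them Kcnj11, Kcns1, Kcnd3, Kcnk1 and Kcna4. The pairs were chosen on the same pools, so their values are a description. For 4 of the miRNAs the mature sequence was in the RefSeq table used here (GRCm38), and they are printed 5′ to 3′ because a match to bases 2 to 8, the seed in capitals, is how an AGO2-bound miRNA finds a target.
let-7e-5p: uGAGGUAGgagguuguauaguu
miR-362-3p: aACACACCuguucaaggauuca
miR-409-5p: aGGUUACCcgagcaacuuugcau
miR-448-3p: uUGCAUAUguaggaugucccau
These seeds all differ, so the miRNAs belong to separate seed families. miR-34c-5p (Kcnd3) is named only.

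The longest annotated 3′ UTR (GENCODE, GRCm38) of each of these 4 paired genes was searched on the coding strand for the complement of the seed. Kcna4 held it at 2 places in 1615 bases, as ATATGCA, which is found in 12% of 2414 UTRs of similar length. The first match lies at chr2:107296964-107296970 on the plus strand of GRCm38, shown in capitals within 30 bases.
Kcna4 site: cagttatgaaaatgagATATGCAaacgatt
No match was in the UTR of Kcnj11 (1629 bases, CTACCTC for let-7e-5p, in 11.4% of 2417 UTRs of similar length), of Kcns1 (929 bases, GGTGTGT, 11.2% of 1964) or of Kcnk1 (934 bases, GGTAACC, 2.54% of 1969). This says only that these letters are not in these annotated UTRs.

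The miRNA libraries were 5 control, 5 resilient and 3 susceptible pools. miR-448-3p had a mean of 5.51 ± 0.75 log2 CPM (SD, n = 5) in controls, 5.05 ± 0.62 (n = 5) in resilient and 4.76 ± 0.47 (n = 3) in susceptible pools, with ranges that overlapped (4.70 to 6.28, 4.28 to 5.70 and 4.38 to 5.28). Its paired gene Kcna4 was lower in the same order of group means. let-7e-5p was the most abundant of these 5, with 16.28 to 16.37 log2 CPM in controls, 15.58 to 16.16 in resilient and 16.02 to 16.47 in susceptible pools. All resilient pools were below all controls, and how many other miRNAs separate in this way was not counted. The Kcnj11 mean was lower too. The study kept only pairs whose miRNA and mRNA changed in the same direction. A shared direction, here and for Kcna4, therefore follows from that choice and adds no support to a pair. miR-34c-5p spread from 9.91 to 12.07 in controls and from 9.48 to 11.02 in susceptible pools. The other 2 were scarcer, miR-409-5p at 6.65, 6.55 and 5.93 and miR-362-3p at 4.23, 3.97 and 4.25 log2 CPM (means of control, resilient and susceptible pools), each with overlapping ranges.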

How the data were processed

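AGO2-bound RNA of 14 BNST pools was sequenced as mRNA, and that of 13 pools as miRNA. The authors deposited log2 CPM values from voom (0.5 reads added, TMM library size) of genes with a CPM over 1 in at least 3 samples. Submitters' processing notes name HTSeq, Bowtie, limma and GRCm38/mm10. Undoing that step gave whole reads for 100% of values (tolerance of 0.0001 reads). The cohort correction in the study's methods is not part of these values and the cohort was not used here. Blood libraries were left out, and 0 columns of per-sample values were unused.

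All 14 mRNA pools were fitted together in limma 3.58.1 (R 4.3.3, trended empirical Bayes) over 16587 genes with Benjamini-Hochberg adjustment, and differences are on the log2 CPM scale. Calls used the study's thresholds, namely an unadjusted p under 0.05 together with a minimum fold change of 1.2. Single genes were also tested by exact two-sided permutation, whose smallest p is 0.00794. Log2 CPM per kb uses the union of annotated exons. The labels give no cohort for a pool, so p-values measure the spread between these pools, with cohort not accounted for. Depth ranged from 3701281 to 10659882 reads, which sets the counting error of scarce genes. Members, gene lists and tests were chosen with earlier results of these data known. Named genes were those with an adjusted p under 0.05, the 10 called members of smallest p in each comparison, the highest member per kb of each subfamily, members fixed by role and those next to a limit of a call. Alternatives were no trend, sample weights, voom weights, quantile scaling, total reads, an offset of 2 reads, a level filter, the compared groups only, a replicate block, and leaving out each pool. Some items, among them 3 members, are not reported here or plotted by gene, and they remain in the counts and medians.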

Additional observations from a re-analysis of the deposited data

Results flagged for a closer look

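Over the 43 genes named by rule, 129 groups of 4 or 5 pools were examined, and 4 held a pool far from the others, with a gap over Dixon's 95% critical value. Chance gives about 1 in 20 groups. Kcns2 was 5.39 log2 CPM in susceptible pool 3, where the next pool was 5.13, and that pool still lay below every control. Kcne2 was 0.20 in susceptible pool 4, with 6 reads, where the next pool was -3.36, with 0 reads. Kcnab2 was 6.95 in resilient pool 3, where the next was 6.63, and this pool also stands apart over all genes. Kcnq3 was 8.15 in resilient pool 5, where the next was 7.93.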

How the results depend on the processing

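Of the called channel genes that were named by rule, none changed direction under any alternative. The direction of Kcna5 and of genes on the other lists was not examined across the alternatives. In resilient pools the count of called genes was 11 as reported, 7 without the trend, 7 with voom weights, 19 with sample quality weights and 7 to 23 when a pool was left out (23 without resilient pool 3). Those with an adjusted p under 0.05 were 3 as reported, 0 without the trend, 1 with voom weights and 0 to 14 when a pool was left out (0 without resilient pool 5, or without 1 of 2 controls, numbers 1 and 3, and 1 when resilient pool 1 or 2 or either of controls 2 and 5 was dropped). In susceptible pools the count was 16 and stayed within 1.5 times under every alternative, 11 to 19 when a pool was left out. Its adjusted count was 2 as reported, 1 without the trend, 5 with sample quality weights, 6 with only the compared groups and 1 to 6 when a pool was left out (6 without resilient pool 3, and 1 on dropping any of controls 1, 2, 3 and 5, resilient pool 1, or susceptible pools 2 and 3). Between susceptible and resilient pools 1 gene was called, 2 with voom weights and 0 to 5 when a pool was left out (5 without resilient pool 3, 0 without susceptible pool 3, and 2 on dropping control pool 5, resilient pools 2 or 4, or susceptible pools 1 or 4), and the median difference moved from -0.02 to 0.056 with total reads, and was above 0 also without resilient pool 3 (0.039) and without susceptible pool 4 (0.020). The causes were not tested. Depth limits Kcne2 and Kcnu1, which a filter on the mean level removes.

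With the replicate number as a block, 8 genes were called in resilient pools (0 with an adjusted p under 0.05), 13 in susceptible pools and 2 between the defeated groups. Same-numbered pools did not deviate together, with correlations of -0.17 to 0.14 over 13 pairs and 2 of them over 0.1, so the numbers were not taken as a pairing.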
